A study of Mus musculus with 18 samples.

Results

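The genes described here are the proteasome genes of mouse skeletal muscle: every gene whose symbol begins with Psma, Psmb, Psmc, Psmd, Psme, Psmf or Psmg followed by a number. The choice used the symbol and a floor on the counts, not any response to treatment. Of 54 symbols that fit the pattern, 4 were pseudogenes and were left out, and 47 of the other 50 reached at least 10 read counts in at least 3 of the 18 libraries. These 47 of 43430 gene identifiers are the members, and all 47 were among the 13596 genes that could be tested. Psma8, Psmb11 and Psme2b did not reach 10 counts in any library, with totals of 10, 9 and 45 counts. Just inside the floor were Psmg4, with 20 to 62 counts per library, and Psmc3ip, with 6 to 37. Psmc3ip fits the pattern of letters but encodes a protein of meiotic recombination and is no subunit, so it is counted with the members and given no role.

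The data are RNA-seq libraries of quadriceps myofibers from 18 C57BL/6 mice (C57BL/6J in the study's methods), each mouse giving 1 library. The libraries form 6 groups of 3: male and female mice given vehicle, weekly prednisone or daily prednisone. Prednisone is a synthetic glucocorticoid, a drug class known both to lessen inflammation and to waste muscle when given every day. All mice were injected into the peritoneum every day, with DMSO in buffered saline as the vehicle. The daily group received prednisone at each injection, and the weekly group on a single day of each week with vehicle on the others. Age and length of treatment are not in the sample labels. The 3 mice of a group are separate samples by the labels. Myofibers were the fraction that a strainer held back after collagenase digestion, so cells attached to the fibers can be in the libraries.

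The proteasome is the barrel-shaped protease that degrades proteins marked with ubiquitin, and in muscle it carries out much of the breakdown of contractile proteins during atrophy. Its 20S core is a stack of rings of alpha and beta subunits, and 3 of the beta subunits (Psmb5, Psmb6 and Psmb7) hold the active sites. The 19S cap recognises and unfolds ubiquitinated substrates. Cells of the immune system, and other cells under interferon, replace the catalytic subunits with Psmb8, Psmb9 and Psmb10 to form the immunoproteasome. By role, the members divided into 7 alpha subunits, 4 beta subunits without an active site, 3 catalytic and 3 inducible catalytic subunits, 6 ATPases and 11 other subunits of the 19S cap, 5 activators or inhibitors (Psme1 to Psme4 and Psmf1), and 7 chaperones that assemble the particle and are not part of the finished form (Psmd5, Psmd9, Psmd10 and Psmg1 to Psmg4).

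The 47 genes lie on 16 chromosomes and are not a cluster, so the stretches in front of their start sites are shown for members that the results turn on. Promoters of 300 bases, from 250 before the RefSeq start site, were available from the RefSeq annotation of GRCm38.p6 for 40 of the 47. The first pair encode catalytic subunits, Psmd4 encodes a ubiquitin receptor of the 19S cap, Psme1 a subunit of the PA28 activator, and Psmg3 an assembly chaperone. All 5 genes fell after daily prednisone in the mean of both sexes. Capitals mark matches, on either strand, to CCAAT, to the antioxidant response element core TGACNNNGC, or to the interferon-stimulated response element (GAAA, any 2 bases, then GAAA again), and the searched motifs may overlap.
Psmb5, chr14:54617946-54618245, minus strand: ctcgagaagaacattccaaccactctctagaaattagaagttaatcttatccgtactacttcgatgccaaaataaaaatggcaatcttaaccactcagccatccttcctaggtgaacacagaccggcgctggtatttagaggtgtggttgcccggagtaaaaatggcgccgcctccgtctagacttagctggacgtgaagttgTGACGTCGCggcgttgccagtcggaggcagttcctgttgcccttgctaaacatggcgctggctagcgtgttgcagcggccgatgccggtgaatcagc
Psmb6, chr11:70525107-70525406, plus strand: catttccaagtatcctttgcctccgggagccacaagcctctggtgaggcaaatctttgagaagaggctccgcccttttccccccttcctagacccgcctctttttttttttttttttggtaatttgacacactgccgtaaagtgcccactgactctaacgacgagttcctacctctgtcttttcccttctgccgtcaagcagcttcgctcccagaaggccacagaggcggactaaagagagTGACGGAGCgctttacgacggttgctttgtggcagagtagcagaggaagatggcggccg
Psmd4, chr3:95042565-95042864, minus strand: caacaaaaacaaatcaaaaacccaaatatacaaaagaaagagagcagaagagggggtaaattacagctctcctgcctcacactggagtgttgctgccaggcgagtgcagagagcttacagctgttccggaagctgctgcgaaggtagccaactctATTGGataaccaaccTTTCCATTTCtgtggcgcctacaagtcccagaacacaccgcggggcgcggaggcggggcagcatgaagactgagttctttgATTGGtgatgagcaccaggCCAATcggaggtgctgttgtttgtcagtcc
Psme1, chr14:55578244-55578543, plus strand: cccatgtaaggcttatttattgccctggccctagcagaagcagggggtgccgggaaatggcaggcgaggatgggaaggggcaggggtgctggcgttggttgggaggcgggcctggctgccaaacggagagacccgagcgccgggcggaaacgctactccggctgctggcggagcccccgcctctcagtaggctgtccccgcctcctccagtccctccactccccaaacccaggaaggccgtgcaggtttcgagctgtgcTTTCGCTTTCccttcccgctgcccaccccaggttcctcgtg
Psmg3, chr5:139826845-139827144, minus strand: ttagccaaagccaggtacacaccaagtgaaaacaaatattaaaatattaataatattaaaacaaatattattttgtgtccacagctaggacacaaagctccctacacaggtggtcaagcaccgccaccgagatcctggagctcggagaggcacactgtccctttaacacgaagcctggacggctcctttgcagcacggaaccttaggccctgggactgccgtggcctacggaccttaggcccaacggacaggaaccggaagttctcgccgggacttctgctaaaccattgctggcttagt
With the start site as position 0, the match in Psmb5 is to the antioxidant element at −47 and the match in Psmb6 to the same element at −9. Psmd4 holds CCAAT at −95, 1 and 20 and the interferon element at −80, Psme1 holds the interferon element at 9, and Psmg3 holds none of these letters. The RefSeq start site of Psme1 lies 371 bases inside the gene as the deposited table bounds it. In the table, whose bounds are in mm10, the genes span chr14:54614120-54617995 (Psmb5, ENSMUSG00000022193), chr11:70525367-70527858 (Psmb6, ENSMUSG00000018286), chr3:95032694-95042614 (Psmd4, ENSMUSG00000005625), chr14:55578123-55581529 (Psme1, ENSMUSG00000022216) and chr5:139823592-139826885 (Psmg3, ENSMUSG00000029551).

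Promoters of the members were a mixed set by these motifs. CCAAT was found in 14 of 40 member promoters (35%), against 37.9% of all 27025 promoters of the same length, and the antioxidant element in 6 (15%), against 12.5%. The interferon element was found in 5 (12.5%), against 3.49% of all promoters, but in 0 of the 3 inducible catalytic genes. The palindromic glucocorticoid element (GNACA, any 3 bases, then TGTNC) was found in 0 of 40, against 0.463% of all promoters. Among the 16 members with a promoter that fell after daily prednisone, 7 held CCAAT and 2 the antioxidant element. Among the 24 that were not called, 7 held CCAAT and 4 the antioxidant element.

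Libraries held 10506661 to 14686654 counts, and levels are given as CPM, the usual unit of a gene's counts relative to its library's total, here after scaling by TMM factors, with the edgeR quasi-likelihood test adjusted over all 13596 genes and a call at an adjusted p under 0.05. Of 10 myofiber markers examined, 9 were present in each library and Myh7, the slow myosin gene, was at 0 in male vehicle library 1. Their summed level was 87469 to 167761 CPM, and 0 of them were called in any comparison with vehicle. Female weekly library 1 stood apart, with Myh7 at 668 CPM against at most 94.6 in the other libraries. Adipocyte markers were higher in both treated groups of both sexes, for 9 of 10 genes in males and 10 of 10 in females. In the mean of both sexes 7 of the 10 rose after daily prednisone (7.48% of all tested genes). After weekly prednisone 0 did (0% of all tested genes were called). Their summed level was 580.6 to 1097 CPM in vehicle-treated, 967 to 1792 in weekly treated and 1006 to 2389 in daily treated males, and 1459 to 1595, 1745 to 8400 and 2535 to 6322 in the same groups of females. The female weekly libraries were uneven, with the lowest sum in library 2 and the highest in library 3. In bulk libraries, fewer cells of a type and less RNA per cell cannot be told apart. With the adipocyte score as a covariate, 0 members were called after daily prednisone in males or in the mean of both sexes (46 and 13 of all tested genes were). As these markers differ with treatment, this fit cannot tell adipocyte content and treatment apart. Of 5 blood markers 4 fell after daily prednisone in the mean of both sexes, from 115.5 to 170.0 CPM in summed level after vehicle to 104.5 to 122.3 in males, and from 96.5 to 174.8 to 68.0 to 88.6 in females. The part of these cells in the results was not tested further.

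In vehicle-treated muscle, the catalytic genes differed from their inducible counterparts by more than an order of magnitude. Per kilobase of transcript, Psmb7 stood at 173 CPM in males and 165 in females, Psmb6 at 162 and 167, and Psmb5 at 135 and 121. The inducible Psmb10, Psmb8 and Psmb9 stood at 8.27, 5.07 and 2.82 CPM per kilobase in males and at 9.34, 6.6 and 4.22 in females. The summed CPM of the inducible genes amounted to 4.59 to 5.70% of that of the 3 standard catalytic genes in vehicle-treated males and to 5.79 to 8.46% in vehicle-treated females.

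After daily prednisone, transcripts of the proteasome were lower than after vehicle in males across nearly all roles. Of 47 members, 10 fell and 0 rose (4.38% of all tested genes fell and 2.07% rose), and 44 were lower. Their median log2 fold change was −0.42, with an interquartile range of −0.55 to −0.24, against a median of 0.05 over all tested genes. At an unadjusted p under 0.05, 28 members were lower (12.2% of all tested genes). In 33 members the 3 daily treated males were all below the 3 vehicle-treated males, compared with 17.1% of all tested genes. The genes that fell were Psma2 of the alpha ring, Psmb1, Psmb3 and Psmb4 of the beta ring, the catalytic Psmb5 and Psmb6, Psmd13 of the 19S lid, the activator Psme1, and the chaperones Psmg2 and Psmg3. With any 1 of the 6 libraries left out, 0 to 6 of these calls were made (92 to 414 calls over all genes). None was made without vehicle library 1 or daily library 3. With a trend on transcript length and GC content taken out 0 were made (29 calls over all genes).

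**Figure D1:**
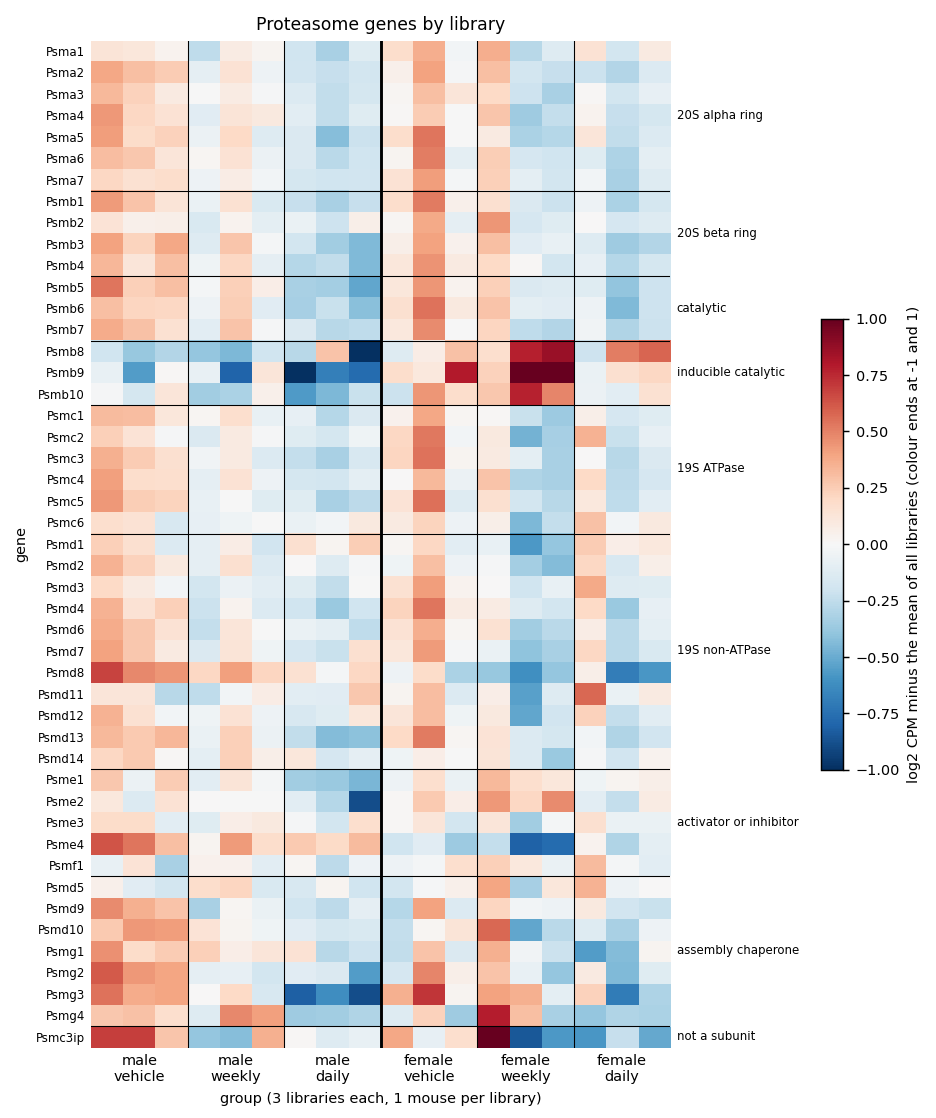
Heat map of the 47 members (vertical axis, grouped by role) in the 18 libraries (horizontal axis, grouped by sex and treatment); colour is log2 CPM minus the gene's mean over all libraries, with the colour scale ending at −1 and 1. The male daily libraries are below the gene mean for most members, while vehicle library 2 of the females and library 1 of the males are above it for most.

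Of the genes with an active site, Psmb5, the chymotrypsin-like subunit, measured 133, 108 and 113 CPM in vehicle-treated males and 73.2, 72.1 and 63.8 in daily treated males. The groups did not overlap, and Psmb5 fell by 40.8% (log2 fold change −0.76 ± 0.15 SE, n = 3 per group, edgeR adjusted p = 0.0105). Psmb6, the caspase-like subunit, measured 135, 127 and 127 CPM after vehicle and 87, 93.7 and 82.2 after daily prednisone. It fell by 32.4% (−0.56 ± 0.15, edgeR adjusted p = 0.0393), again with every treated library below every vehicle library. Psmb7, the trypsin-like subunit, measured 214, 203 and 184 CPM after vehicle and 150.4, 137 and 139 after daily prednisone. The groups did not overlap here either, but the difference of −0.49 ± 0.16 missed the threshold (edgeR adjusted p = 0.0789).

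In daily treated females these 3 genes were also lower, but 0 of 47 members fell or rose (0.25% of all tested genes fell and 0.132% rose). With edgeR 13 members were lower at an unadjusted p under 0.05 (7.66% of all genes), and the smallest adjusted p was 0.116, for Psmb6. Psmb5 measured 98.7, 124 and 93.9 CPM in vehicle-treated females and 84.1, 69.5 and 79.1 in daily treated females, a difference of −0.45 ± 0.15 on the log2 scale. Psmb6 measured 123, 159.7 and 117 CPM against 106, 81 and 94.8 (−0.50 ± 0.15), and Psmb7 178, 230.1 and 166 against 162, 135 and 143 (−0.38 ± 0.16). All 3 genes had each treated library below each vehicle library, which held for 12 members in all (10.2% of all genes). Over the 47 members the median log2 fold change was −0.24, against 0.01 over all genes, and 39 were lower, but the median was −0.11 without female vehicle library 2. Female vehicle library 2 had the highest level of all 3 genes in females, and its summed level of the 14 standard 20S genes, 1588 CPM, exceeded the 1255 and 1193 CPM of the other vehicle-treated females.

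**Figure D2:**
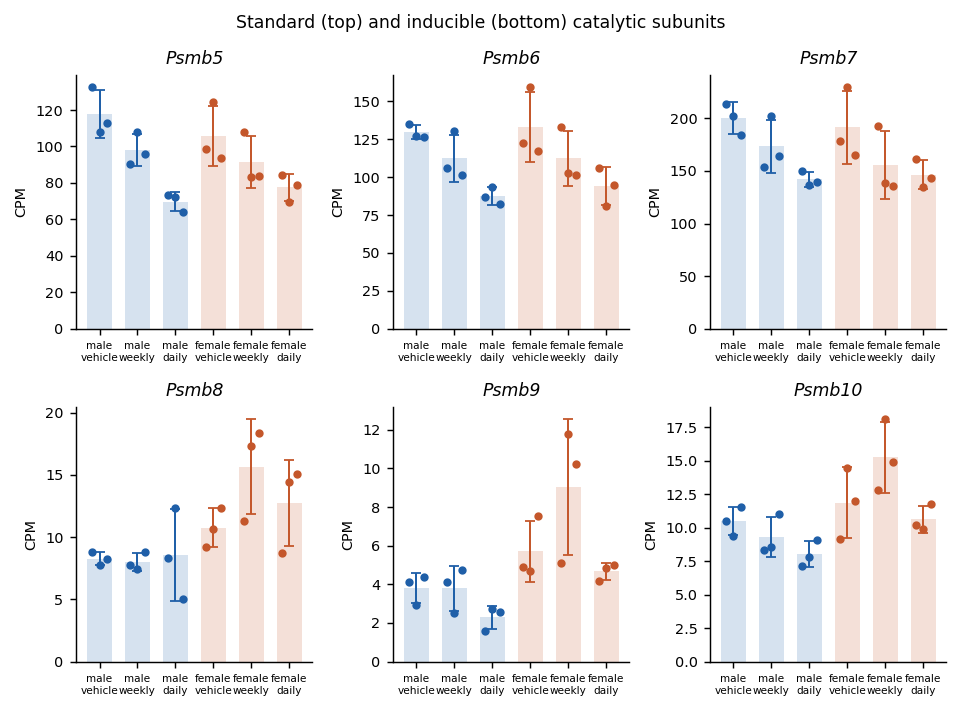
Levels of the catalytic genes Psmb5, Psmb6 and Psmb7 (top) and of the inducible genes Psmb8, Psmb9 and Psmb10 (bottom) in CPM; bars are the mean of 3 libraries, error bars the SD and points the libraries, by sex and treatment. Daily treated libraries lie below the vehicle libraries of their sex in the top panels, and the female weekly libraries 2 and 3 are the highest for Psmb9.

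Averaged over both sexes, 20 members fell and 0 rose after daily prednisone (7.47% of all tested genes fell and 7.48% rose), with a median of −0.33 against 0.02 over all genes. At an unadjusted p under 0.05, 29 members were lower (13.7% of all genes). The 20 became 11 to 13 without female vehicle library 2, female daily library 2, male vehicle library 1 or male daily library 3. Over all genes these fits gave 1340 to 1597 calls. With the length and GC trend taken out the 20 became 5 (550 calls over all genes). Of the 14 standard 20S genes 11 fell, of the 17 genes of the 19S cap 6 fell, and of the 3 inducible genes 0 fell. In the alpha ring Psma2, Psma3, Psma5, Psma6 and Psma7 fell, with log2 fold changes of −0.44 to −0.32. In the beta ring Psmb1, Psmb3 and Psmb4 fell, at −0.49, −0.55 and −0.49, as did the catalytic Psmb5, Psmb6 and Psmb7, at −0.60, −0.53 and −0.44. The 20S genes that were not called were Psma1 (−0.23, edgeR adjusted p = 0.19), Psma4 (−0.32, 0.0587) and Psmb2 (−0.18, 0.298; 95% interval −0.40 to 0.04). The inducible genes, also not called, ranged from −0.52 to 0.16 in the same mean, with wide errors. Psmb9 differed by −0.74 ± 0.34 in males and −0.29 ± 0.31 in females, Psmb10 by −0.39 ± 0.19 and −0.15 ± 0.18, and Psmb8 by 0.07 ± 0.28 and 0.25 ± 0.27. In males all daily treated libraries were below all vehicle libraries for Psmb9 and Psmb10.

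The beta subunits Psmb3 and Psmb4 and the alpha subunit Psma2 show the size of the change per library. Psmb3 measured 89.5, 79.3 and 88.9 CPM in vehicle-treated males and 59.7, 53.2 and 50.03 in daily treated males, and 70.6, 89.8 and 69.9 against 62, 53.1 and 55.4 in females. Psmb4, whose levels were higher, measured 133, 114 and 130.2 against 86.6, 89.1 and 77.5 CPM in males and 114, 144 and 112 against 99.7, 86.7 and 93.5 in females. Neither gene had a daily treated library that reached the vehicle-treated libraries of its sex. Psma2 measured 79, 74.4 and 72.2 against 52.8, 51.4 and 53.3 CPM in males and 62.5, 79.8 and 60.0 against 52.1, 49.3 and 55.1 in females, also without overlap. In males these 3 genes fell by 36.8%, 32.9% and 30.2% (edgeR adjusted p = 0.0182, 0.0225 and 0.0415).

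Genes of the 19S cap were lower less uniformly. Averaged over both sexes the ATPases Psmc1, Psmc3 and Psmc5, which unfold substrates, fell with log2 fold changes of −0.32, −0.45 and −0.41. The ubiquitin receptor Psmd4 and the lid subunits Psmd6 and Psmd13 fell at −0.43, −0.34 and −0.55. Psmd13 measured 86.9, 83.6 and 87.7 CPM in vehicle-treated and 58.7, 51.6 and 52.5 in daily treated males, and 79.9, 99.7 and 70.6 against 68.3, 56.4 and 61 in females. It was the 1 cap gene called in the comparison of males (−0.67 ± 0.14, edgeR adjusted p = 0.0141). Psmd13 overlaps Sirt3, a mitochondrial deacetylase gene, and reads of the pair cannot be told apart without the strand setting. Psmd4 measured 158, 137 and 146 against 108, 96.1 and 108 CPM in males, with no overlap, and 144, 179 and 131 against 142, 96.1 and 117 in females, where daily treated library 1 lay inside the vehicle range.

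Some of the other cap genes stayed near their vehicle level, within intervals that exclude changes of the size seen in Psmb5. For the mean of both sexes the scaffold subunit Psmd1 differed by 0.08 (95% interval −0.13 to 0.28), Psmd11 by 0.09 (−0.18 to 0.36) and the ATPase Psmc6 by −0.01 (−0.20 to 0.18). The deubiquitinase Psmd14 differed by −0.13 (−0.32 to 0.06) and the scaffold Psmd2, also a ubiquitin receptor, by −0.15 (−0.36 to 0.06). Psmd14 measured 48.1, 50.03 and 42.2 CPM in vehicle-treated and 45.3, 37.2 and 39.2 in daily treated males, which overlap. Psmd1 measured 145, 137 and 111 CPM against 137, 125 and 146 in the same groups. Not every uncalled cap gene was this near to vehicle. Psmd8 differed by −0.42 ± 0.18 in males and −0.32 ± 0.18 in females, and DESeq2 called it in the mean of both sexes (−0.38, adjusted p = 0.0312). Psmc4 differed by −0.41 ± 0.17 and −0.16 ± 0.17, and Psmd7 by −0.33 ± 0.16 and −0.25 ± 0.16.

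**Figure D3:**
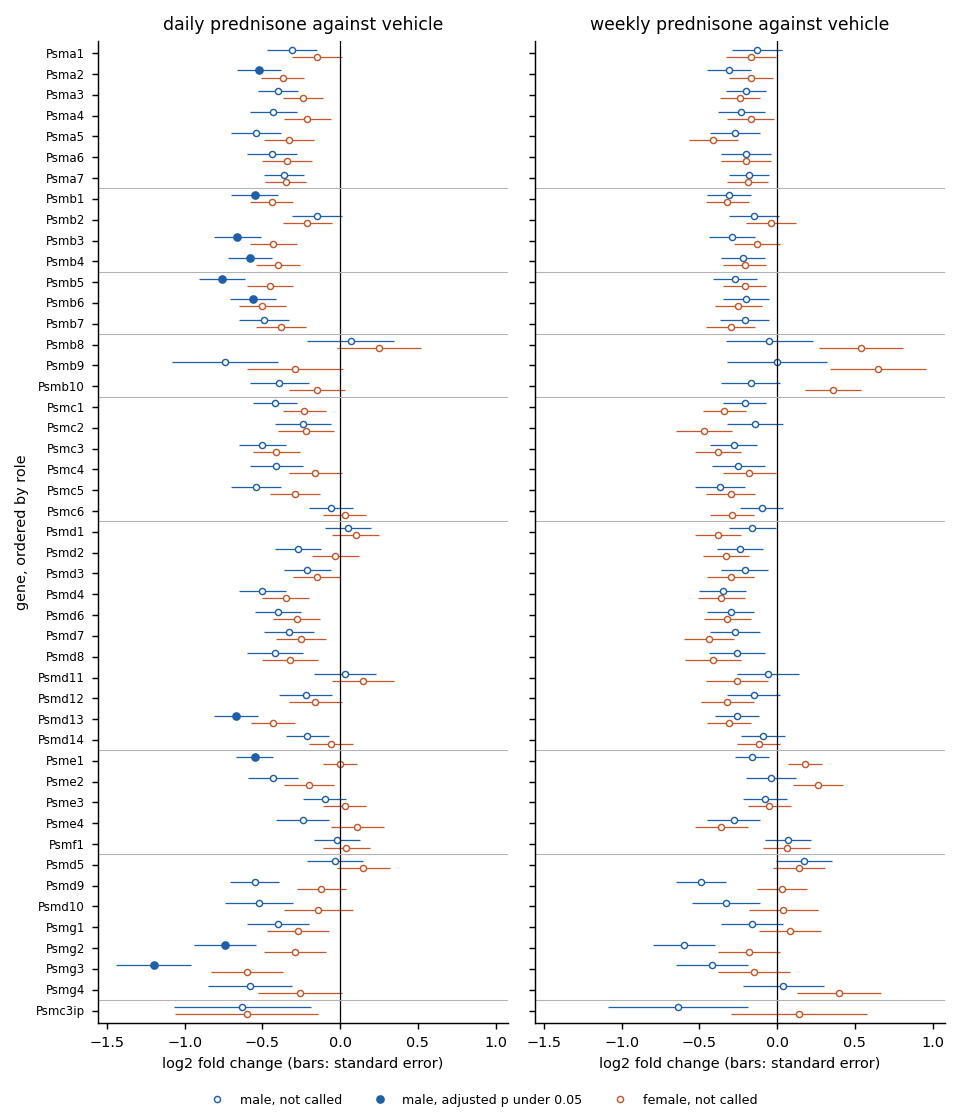
Log2 fold change against vehicle with its SE (horizontal axis) for each of the 47 members (vertical axis, by role), after daily (left) and weekly (right) prednisone, in males (blue) and females (orange); filled points passed an adjusted p of 0.05. The filled points are the 10 genes that fell in daily treated males.

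Regulators and assembly factors divided in the same way. Psme1, an interferon-inducible subunit of the PA28 activator, measured 38.4, 30.6 and 37.9 CPM in vehicle-treated and 25, 24.6 and 23.2 in daily treated males, a fall of 31.9% (−0.55 ± 0.12, edgeR adjusted p = 0.0137). In females it measured 30.7, 35.6 and 30.4 CPM against 30.9, 32.5 and 33.2, which overlap (95% interval of the log2 difference −0.23 to 0.22). Psme1 overlaps Emc9, which held over 10% as many counts. Psme2, the partner of Psme1 in the PA28 ring, measured 26.3, 22.3 and 27.1 CPM against 22.7, 20.1 and 13.2 in males, which overlap. The activators Psme3 and Psme4 and the inhibitor Psmf1 differed by −0.03, −0.06 and 0.01 in the mean of both sexes. The chaperone Psmg3, which helps form the alpha ring, had the largest change of any member in males. It measured 8.16, 7.26 and 7.39 CPM after vehicle and 3.2, 3.65 and 3.04 after daily prednisone, a fall of 56.5% (−1.20 ± 0.24, edgeR adjusted p = 0.0115). In females it measured 7.2, 9.24 and 5.73 CPM against 6.6, 3.46 and 4.53, so that daily treated library 1 lay inside the vehicle range, and the difference was −0.60 ± 0.23. Psmg2, another chaperone of the alpha ring, measured 25.4, 22.4 and 21.8 CPM in vehicle-treated and 15.3, 15 and 11.3 in daily treated males, a fall of 40.0% (edgeR adjusted p = 0.0349), with overlap in females.

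Partners that the symbol pattern does not reach were examined as a list of 12. After daily prednisone 2 of the 12 fell and 0 rose in males, 1 fell and 0 rose in females, and 2 fell and 1 rose in the mean of both sexes. Sem1, the smallest subunit of the 19S lid, measured 90.1, 77.2 and 88 CPM in vehicle-treated and 48.3, 43.1 and 45.9 in daily treated males. In females it measured 79.7, 91.6 and 68 CPM against 50.1, 49.95 and 50.3, and Sem1 fell in both sexes (−0.89 ± 0.13, edgeR adjusted p = 0.00578, and −0.67 ± 0.13, edgeR adjusted p = 0.0429). Pomp, the maturation factor that the core particle degrades on completion, fell in males (−0.78 ± 0.15, edgeR adjusted p = 0.0109), from 90.6, 77.2 and 80.0 CPM to 54.8, 45.1 and 44.6. The deubiquitinase Usp14, which trims ubiquitin chains at the cap, was the 1 partner that rose in the mean of both sexes (0.29 ± 0.09, edgeR adjusted p = 0.0476).

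**Figure D4:**
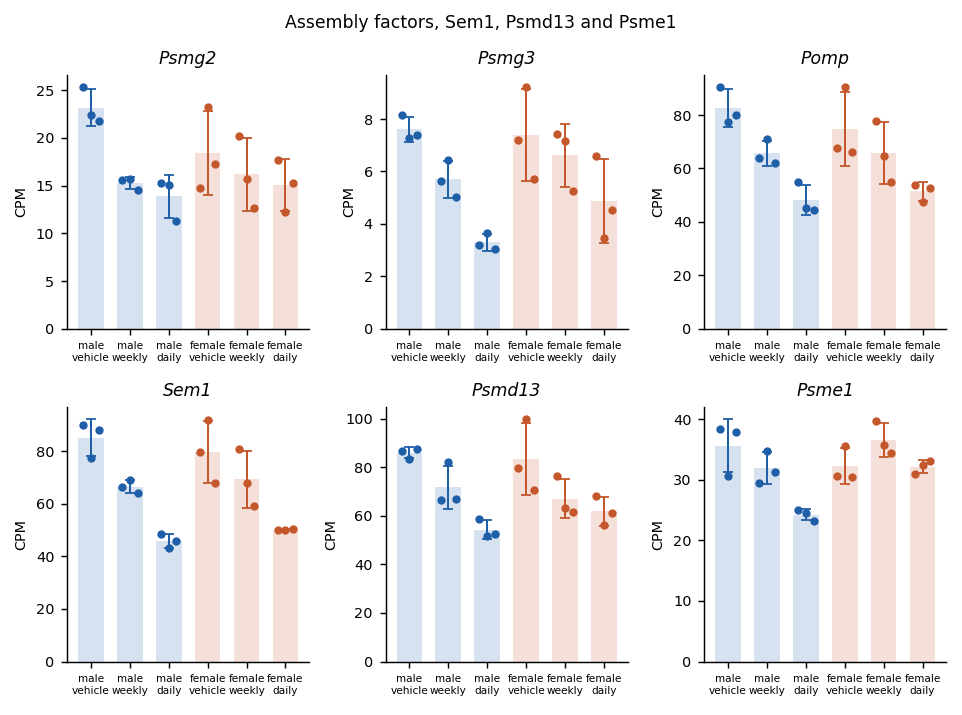
Levels in CPM of the chaperones Psmg2, Psmg3 and Pomp, the cap subunits Sem1 and Psmd13 and the activator Psme1; bars are the mean of 3 libraries, error bars the SD and points the libraries, by sex and treatment. Sem1 lies between 43.1 and 50.3 CPM in the 6 daily treated libraries, and the Psme1 libraries of daily treated males lie below their vehicle libraries, while those of females overlap.

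Upstream of the proteasome the pattern differed between genes. Of 15 genes for ubiquitin and its activation, transfer or delivery, 1 rose and 1 fell in daily treated males, namely the activating enzyme gene Uba6 (1.29 ± 0.27, edgeR adjusted p = 0.0143) and Rps27a, which encodes ubiquitin fused to a ribosomal protein (−0.76 ± 0.17, edgeR adjusted p = 0.0192). Over both sexes Uba6 and the shuttle factor Ubqln2 rose, while Ubb, a polyubiquitin gene, and Rps27a fell. Of 8 ubiquitin ligase genes of muscle atrophy, 1 rose in daily treated males, the ligase subunit gene Fbxo30, from 9.66, 10.01 and 10.1 to 19.5, 17.8 and 21.9 CPM (0.99 ± 0.19, edgeR adjusted p = 0.0109). Fbxo30 and Fbxo21 were the 2 that rose in the mean of both sexes. In weekly treated females Fbxo21 measured 20.5, 9.48 and 45.3 CPM, lowest in library 2 and highest in library 3, as was the adipocyte sum. The part of adipocytes in the rise of Fbxo21 was not tested. Of 9 genes for regulators of proteasome transcription, 0 were called with edgeR in any of the comparisons with vehicle. Weekly prednisone was followed by 0 calls in each of these lists.

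Weekly prednisone was not followed by a call for any member in either sex or in their mean (0% of all tested genes were called with edgeR in each of these comparisons). In the mean of both sexes 21 members were lower at an unadjusted p under 0.05 (4.57% of all genes), with Psmd4 at the smallest adjusted p, 0.233. In weekly treated males 43 members were lower, with a median of −0.21, and 5 had an unadjusted p under 0.05, all lower (2.71% of all genes). These were Psma2, Psmc5, Psmd4, Psmd9 and Psmg2, at −0.60 to −0.31 on the log2 scale. In 18 members the 3 weekly treated males were all below the vehicle-treated males (8.97% of all genes). In weekly treated females 35 members were lower, with a median of −0.20. This median was −0.38 without weekly library 1, −0.10 without vehicle library 2 and −0.12 without weekly library 3. In the same comparison 13 members had an unadjusted p under 0.05, of which 12 were lower (2.29% of all genes). In 4 members the weekly treated females were all below the vehicle-treated females (3.13% of all genes). All 17 genes of the 19S cap were lower in weekly treated mice of both sexes, with a median over the ATPases of −0.23 in males and −0.32 in females, and over the other cap subunits of −0.24 and −0.32. Psmd8, a lid subunit, measured 246, 216 and 209 CPM in vehicle-treated and 178, 205 and 179 in weekly treated males, and 149, 175 and 124 against 119, 101 and 118 in females. Psmd8 and Psmd3 had no overlap in either sex after weekly treatment, and neither was called. The share of all tested genes without overlap in both sexes was not computed.

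In weekly treated females 12 members were higher, among them all 3 inducible subunits, 3 of the 5 activators or inhibitors and 5 of the 7 chaperones. Members with lower mean levels tended to have higher changes here. Spearman's rho between change and mean log2 CPM was −0.83 over the members, which share libraries, against −0.24 over all tested genes. The part of level in this split by role was not tested. Psmb8 measured 9.23, 10.6 and 12.4 CPM in vehicle-treated and 11.3, 17.3 and 18.3 in weekly treated females, Psmb9 4.91, 4.67 and 7.52 against 5.09, 11.8 and 10.3, and Psmb10 9.15, 14.5 and 12 against 12.8, 18.1 and 14.9. In each gene the groups overlapped, with weekly treated library 1 inside the vehicle range. The differences of 0.54 ± 0.27, 0.65 ± 0.31 and 0.36 ± 0.18 were not called (edgeR adjusted p = 0.649, 0.623 and 0.65). The summed CPM of the inducible genes was 6.74% of that of the standard catalytic genes in weekly treated library 1 and 14.6% and 13.6% in libraries 2 and 3. In the same comparison all 10 macrophage markers were higher, with a summed level of 39.9 to 77.4 CPM in vehicle-treated and 92.4 to 115.9 in weekly treated females. All 4 tested of 6 dendritic and antigen-presenting markers were also higher, from 59 to 100.6 CPM up to 107.4 to 141.1, while 0 of 9 lymphocyte markers had enough counts to test. Of 12 genes of the interferon response and antigen processing, 10 were higher and 0 were called. The part of these cells in the result was not tested. Psmb9 overlaps Tap1, an antigen transporter gene, and the counts of the pair cannot be told apart without the strand setting.

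Daily and weekly prednisone were compared directly within each sex, and 0 members were called without a replicate block (0% of all tested genes in both). Same-numbered daily and weekly libraries of females deviated together, and a replicate block in these 6 libraries was chosen after this was seen. With it Psmd1 was called (0.49, edgeR adjusted p = 0.0437), among 522 of all tested genes. In males 40 members were lower after daily than after weekly prednisone, with a median of −0.19, and in 20 the daily treated libraries were all below the weekly treated ones (12.7% of all genes). With edgeR 10 had an unadjusted p under 0.05, all lower (7.05% of all genes). Psmb5 was among them, at 73.2, 72.1 and 63.8 CPM after daily against 90.3, 108 and 96 after weekly prednisone (−0.49 ± 0.15, edgeR adjusted p = 0.173), as was Psmg3 (−0.78 ± 0.24, edgeR adjusted p = 0.187). In females 26 members were lower, with a median of −0.04 (0.10 without weekly library 1), and 7 had an unadjusted p under 0.05, 4 of them lower (8.63% of all genes). Psmb9 was lower after daily prednisone (−0.94 ± 0.31, edgeR adjusted p = 0.132), and Psmd1 was higher, at 147, 128 and 132 against 116, 82.1 and 93.7 CPM (0.48 ± 0.15, edgeR adjusted p = 0.119 without the block). Without female weekly library 1, Psmb9 (−1.23), Psmd1 (0.63) and Psme4 (0.68) passed the threshold in this comparison, among 312 of all tested genes.

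The sexes were compared in their response and at baseline. The response to daily prednisone did not differ between the sexes by a call for any member (0% of all tested genes), although 46 of 47 differences were above 0 for females minus males, with a median of 0.15. At an unadjusted p under 0.05 edgeR gave 1 member (4.69% of all genes), Psme1 (0.55 ± 0.16, 95% interval 0.23 to 0.87, edgeR adjusted p = 0.889). For Psmb5 the difference was 0.31 (−0.09 to 0.71) and for Psmb6 0.06 (−0.37 to 0.49). For the weekly response 0 members were called (0% of all tested genes), 2 had an unadjusted p under 0.05 (2.63% of all genes), and the median was −0.01. Between vehicle-treated females and males 0 members were called (0.765% of all tested genes) and 3 had an unadjusted p under 0.05 (10.4% of all genes). Psme4, which encodes the PA200 activator, measured 371, 348 and 296 CPM in males and 209.9, 222 and 187 in females (−0.72 ± 0.17, edgeR adjusted p = 0.059), without overlap. Psmd8 also did not overlap (−0.58 ± 0.18, edgeR adjusted p = 0.19). Vehicle-treated females were all below the males in 3 members (9.22% of all genes) and all above them in 2 (9.66% of all genes).

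Most proteasome transcripts are short, and short transcripts as a whole were lower after daily prednisone. With all tested genes split by transcript length into 3 classes of like size, 38 members were in the shortest class (up to 2163 bases), 6 in the middle class and 3 in the longest (over 3791 bases). In daily treated males the shortest members had a median of −0.47, against −0.23 for all genes of that class, and 10 of 38 fell, against 11.5% of all genes there. Averaged over both sexes the values were −0.36 and −0.20, and 19 of 38 fell, against 19.1%. In the middle class 1 of 6 members fell, Psma3, against 2.31% of all genes there. For each library, every gene's log2 level was also taken relative to that gene's own mean over all libraries. The median of the shortest class minus that of the longest was 0.138 to 0.261 in vehicle-treated and −0.325 to −0.254 in daily treated males. In females it was 0.049 to 0.254 and −0.280 to −0.0497. Against the median of all genes of similar length, 41 of 47 members were lower in daily treated males, by a median of −0.16. In daily treated females 34 were lower, by −0.07, and in the mean of both sexes 36, by −0.11. With a trend on length and GC content taken out, 0 members and 29 of all genes fell or rose in daily treated males, and the median of the members was −0.28. Over both sexes 5 members were then called, among 550 of all genes. These were Psma2 (−0.39), Psma3 (−0.52), Psmb1 (−0.36), Psmd13 (−0.49) and Psmg3 (−0.62), while Psmb5 was at −0.31 (edgeR adjusted p = 0.0712). The part of length in the results was not tested beyond this.

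**Figure D5:**
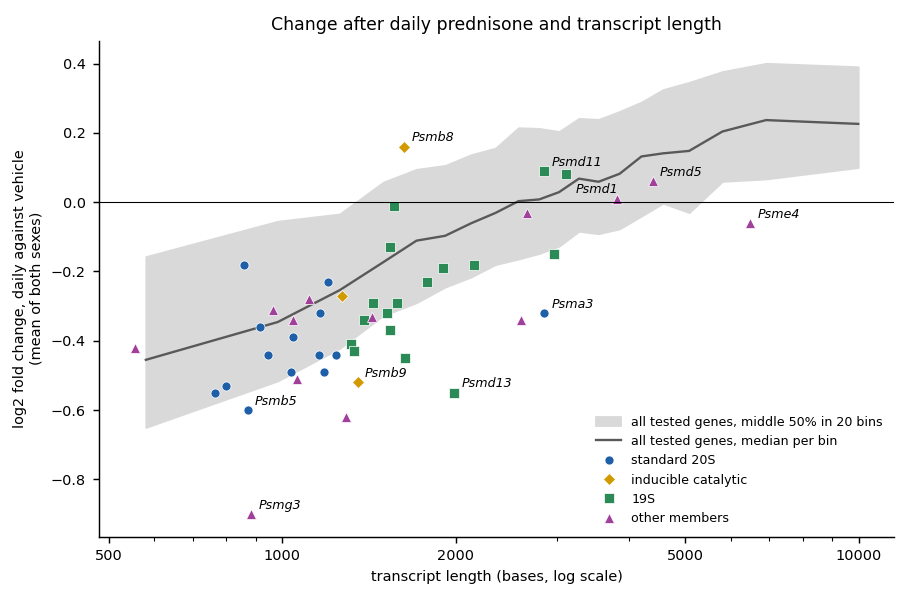
Log2 fold change after daily prednisone, mean of both sexes (vertical axis), against transcript length in bases (log axis) for the 47 members, coloured by role; the line is the median of all tested genes in 20 bins of length and the band their middle 50%. Shorter members lie lower, as do all short genes, and 36 of 47 members are below the line of all genes.

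After weekly prednisone the members did not follow length in this way. Spearman's rho between change and length over the 47 members, which share libraries, was 0.60 in daily treated males and 0.64 in daily treated females, and 0.19 and −0.30 in weekly treated males and females. Against genes of similar length, 42 members were lower in weekly treated males, by a median of −0.13, and 35 in weekly treated females, by −0.22.

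Members also differed in how firmly their fall held when single libraries were left out. For daily prednisone over both sexes, 11 of the 20 genes that fell were called in all 12 fits that left out 1 library: Psma2, Psma5, Psmb1, Psmb3, Psmb4, Psmb5, Psmb6, Psmc3, Psmd4, Psmd13 and Psmg3. In males alone the calls rested on more of the libraries. Psmb5 and Psmg3 passed in 4 of 6 such fits, while Psma2, Psmb1, Psmb6 and Psmg2 passed in 0. Without vehicle library 1 of the males, which had the highest summed 20S level (1496 CPM, against 1367 and 1338), 0 members were called in males. As a share of all counts, the 47 members took 0.332 to 0.410% in vehicle-treated and 0.314 to 0.352% in daily treated males, and 0.342 to 0.392% and 0.339 to 0.374% in females, which overlap in both sexes.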

How the data were processed

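Libraries were made from polyA RNA of quadriceps myofibers from 18 mice, and the authors deposited 1 table of whole-number read counts per gene with no normalization. The submitters' processing notes name TopHat2 2.1.0, Bowtie2 2.2.6 and HTSeq, and the builds mm10 and mm9, and the study's methods name mm10. The strand setting and the annotation release are not given in the sources used here, so 22 members that overlap another gene carry that uncertainty. Of 43430 identifiers, 42462 were matched to a symbol.

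Tests ran in edgeR 4.0.16 under R 4.3.3. After a filterByExpr step (minimum count 10) and TMM scaling, robust quasi-likelihood fits estimated a mean for each of the 6 groups from the 18 libraries together. Benjamini-Hochberg adjustment covered 13596 genes. Standard errors are the absolute log2 fold change over the root of F, and levels per kilobase used the length of the principal transcript. The 95% intervals take these errors as normal, so they are somewhat narrower than the test implies. For Psmb10 in daily treated males the interval was −0.76 to −0.03, while the unadjusted edgeR p was 0.0518. Comparisons with vehicle within a sex share the vehicle libraries between the daily and weekly groups. Alternatives were DESeq2 1.42.0, its size factors, limma 3.58.1 (voom), other filters, groups compared alone, a replicate block, a length and GC trend, an adipocyte covariate and leaving out each library. Genes named were those with fixed roles (catalytic and inducible subunits, ubiquitin receptors, Psmd14, activators, inhibitor), called members, the 3 highest and 3 lowest changes per comparison with vehicle, and called list genes. Others, such as Psmd3 and Psmd8, were named after their values were seen. On data simulated from these libraries, the comparison of daily and vehicle-treated males recovered 45% of 2-fold and 83% of 4-fold changes over 13349 genes, with 3.03% of calls false. The comparison of the daily response between the sexes recovered fewer, 12% of 2-fold and 59% of 4-fold changes over 13426 genes, with 5.33% of calls false. Each p-value rests on a spread between mice of the same group that was estimated over all 6 groups of 3 together, not on the mice of the compared groups alone.

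Labels do not say what the shared replicate numbers mark. Deviations of same-numbered libraries from their group means correlated over 0.1 in every pair only between daily and weekly treated females (0.501, 0.483 and 0.439). A pairing there is inferred from these data alone, and the sample codes of these same-numbered libraries do not share a number. Members and gene lists were chosen with earlier results of these data known. The result of 1 list gene is not reported here.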

Additional observations from a re-analysis of the deposited data

How the results depend on the processing

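The median of the members kept its sign in each comparison with vehicle and in the sex difference of the daily response under all alternatives run, but not where it lay near 0: it went from −0.04 to as far as 0.10 for daily against weekly females (without female weekly library 1, or with the length and GC trend taken out), from −0.01 to as far as 0.09 for weekly response by sex (without female vehicle library 2), and from −0.06 to as far as 0.03 for vehicle-treated females against males (without female vehicle library 3). The 10 members that fell in daily treated males became 18 with DESeq2 (1346 calls over all genes). With the groups compared alone they also became 18 (1530 calls). They became 0 with the length and GC trend taken out (29 calls over all genes) and 0 with the adipocyte score as a covariate (46 calls). With any 1 of the 6 libraries left out they became 0 to 6 (92 to 414 calls over all genes). The count was 0 without male vehicle library 1 or male daily library 3. In the main fit 596 of all tested genes fell and 282 rose in daily treated males. The 0 in daily treated females became 1 with DESeq2 (Psmb6, DESeq2 adjusted p = 0.0467), among 526 calls over all genes. In the main fit 34 of all tested genes fell and 18 rose in daily treated females. The 20 in the mean of both sexes became 5 with the trend taken out (550 calls over all genes). With the adipocyte covariate they became 0 (13 calls over all genes). With 1 library left out they became 11 (without female vehicle library 2, 1340 calls over all genes) to 26 (without female daily library 1). The 0 members called between daily and weekly treated females became 0 to 3 with 1 library left out, and 3 without female weekly library 1 (312 calls over all genes). The 0 between vehicle-treated females and males became 1 (Psme4) with DESeq2, with no filter and with the groups compared alone. Over all genes these settings gave 235, 102 and 120 calls.

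Replicate numbers are shared by the groups, but the labels do not say what they mark. With the replicate number as a block, 9 members fell in daily treated males and 20 in the mean of both sexes. Only between daily and weekly treated females did all same-numbered libraries deviate together, which does not establish a pairing. A replicate block in these 6 libraries, chosen after seeing the data, gave 1 member in place of 0 (Psmd1, 0.49, edgeR adjusted p = 0.0437). It was 1 of 522 calls over all genes. As the block was chosen for the correlation in these data, its calls are no separate evidence. The block over all libraries changed no other count by over 1.5 times. With 3 libraries per group and a median SE of 0.16, a change in members of the size seen in females could fall short of the threshold.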
